A study of Homo sapiens with 6 samples.

Results

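The DEK ChIP-seq list of replicate 2 held 614 compact peaks with many tags that met no peak of replicate 1. They were chosen by tags, length and position, as the peaks of replicate 2 with at least 60 tags and a length of at most 1500 bp that shared not even 1 bp with a replicate 1 peak, on chromosomes 1 to 22 and X. A tag is a sequenced read that MACS, the peak caller, counted in a peak. The 614 compact peaks came from 152289 peaks of replicate 2, of which 147871 met no peak of replicate 1, and from 167206 peaks in both DEK lists. The choice used the tags and lengths of replicate 2 and the positions of replicate 1, so these values describe how the compact peaks were selected and are not results.

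U937 is an established human myeloid cell line, and all samples were unmodified U937 cells with no treatment or comparison group. Formaldehyde-fixed chromatin was sheared and precipitated with an antibody to DEK (2 precipitations) or to H3K4me3 (2 precipitations), and the peak list of each precipitation was used. Chromatin that was not precipitated is not analysed here as a list of its own. Nothing in the labels says that the precipitations came from separate cultures. The study calls its 2 DEK experiments independent and analysed only the peaks that both of them had. The compact peaks therefore lie outside the DEK peaks that the study analysed.

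DEK is an abundant chromatin protein that binds DNA, changes its supercoiling and acts as a histone chaperone, and it was first known as a fusion partner in acute myeloid leukemia. H3K4me3, the trimethylation of lysine 4 on histone H3, marks the transcription start sites (TSSs) of active or poised genes. Much of the human genome is repeated sequence, such as the Alu elements derived from 7SL RNA, the satellites around centromeres and tandem repeats, in which 1 unit is repeated head to tail. A read from such sequence can fit several places in the reference.

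The list of replicate 2 was far longer than that of replicate 1, with 152779 against 15017 peaks on all chromosomes. The depth of each sample is unknown here, since the lists count only reads inside peaks and the study states no more than a minimum for all samples. The tags in peaks summed to 988363 in replicate 1 and 4172422 in replicate 2. A missing peak in replicate 1 therefore does not show that DEK was missing there, and each list being 1 precipitation, the difference between them has no replicate check. MACS gave a false discovery rate of 100% for all peaks of replicate 1. That rate comes from exchanging precipitated and control chromatin, and the list does not show which of them its peaks were called in, so each comparison with replicate 1 rests on that list as deposited. As a check of the cell type, H3K4me3 covered a TSS in both precipitations for 8 of 16 myeloid marker genes, including SPI1 (which encodes PU.1), CEBPA, CD33 and MPO. It did so for 0 of 6 T cell and 0 of 4 epithelial markers. However, 3 of 5 B cell markers, PAX5 among them, and 1 of 5 erythroid markers (EPOR) were also covered.

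The compact peaks are described by their H3K4me3 and by the repetition of their sequence. The next lines give 200 bp around the summit of 4 of them, from the plus strand of hg19 (GRCh37). The first pair lies at genes with H3K4me3. In the window of TOP1, topoisomerase I, at chr20:39658181-39658380, the capitals mark the letters of the SP1 motif. In that of POLG2, the accessory subunit of the mitochondrial DNA polymerase, at chr17:62493173-62493372, they mark the letters of the NRF1 motif.
TOP1: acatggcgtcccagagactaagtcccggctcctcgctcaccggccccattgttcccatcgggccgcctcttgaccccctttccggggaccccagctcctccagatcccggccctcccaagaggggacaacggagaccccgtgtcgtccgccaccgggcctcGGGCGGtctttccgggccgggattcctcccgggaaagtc
POLG2: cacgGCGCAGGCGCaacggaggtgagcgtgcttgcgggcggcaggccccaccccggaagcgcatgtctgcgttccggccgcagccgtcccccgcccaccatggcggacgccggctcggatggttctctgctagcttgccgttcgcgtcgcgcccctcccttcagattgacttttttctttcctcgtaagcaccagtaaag
The second pair is tandem repeat. The window at chr1:248571721-248571920, 5450 bp downstream of the start of the olfactory receptor gene OR2T1, holds a unit of 53 bp whose first copy is in capitals. Shifted by 1 unit, 98.0% of its bases matched. In an intron of the antisense gene MAMDC2-AS1, at chr9:72653179-72653378, runs of the satellite pentamer GGAAT are in capitals where 3 or more stand in a row.
OR2T1: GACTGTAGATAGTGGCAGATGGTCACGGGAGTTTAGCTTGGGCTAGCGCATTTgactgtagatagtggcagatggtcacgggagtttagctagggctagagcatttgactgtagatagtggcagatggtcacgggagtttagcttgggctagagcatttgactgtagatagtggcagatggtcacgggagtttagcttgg
MAMDC2-AS1: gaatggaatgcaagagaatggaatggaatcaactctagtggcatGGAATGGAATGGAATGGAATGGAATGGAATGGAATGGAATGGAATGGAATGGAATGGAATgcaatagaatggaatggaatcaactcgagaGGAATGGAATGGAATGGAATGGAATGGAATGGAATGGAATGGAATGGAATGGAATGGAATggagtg

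By selection, the compact peaks held from 60 to 341 tags with a median of 67, and 234 of them had 60 to 64 tags. Only 30 reached 100 tags. Their length ran from 519 to 1500 bp with a median of 1324.5 bp, and 79 were shorter than 1000 bp. Just inside the limit on tags stood the peaks at PEX10 (a peroxisome assembly gene), at CROCC and at an unnamed gene on chromosome 1, with 60 tags each. Just outside it stood those at PHF13, LINC01226 and S100PBP, with 59 tags each. In all, 81 peaks without a replicate 1 partner missed the limit by 1 tag. The longest were a peak near DPPA2P2 of 1500 bp and 62 tags, one at KIF11 (a motor protein of the mitotic spindle) of 1499 bp and 65 tags, and one near an unnamed gene on chromosome 12 of 1499 bp and 75 tags. The shortest peaks over the limit on length had 1501 bp (60 tags near an unnamed gene and 63 at GRK4) and 1502 bp (89 tags near RN7SKP88).

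The fold enrichment over the local background of MACS lay between 1.85 and 34.34 with a median of 4.015. The MACS score, on a scale of −10 log10 of p, lay between 50.01 and 792.06 with a median of 178.36. The nearest peak of replicate 1 was 136 to 946455 bp away (median 23766 bp). It lay within 1 kb of 15 compact peaks and within 10 kb of 141. The scatter of tags against length shows that the highest tag counts belonged to peaks without H3K4me3 in both precipitations.

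**Figure D1:**
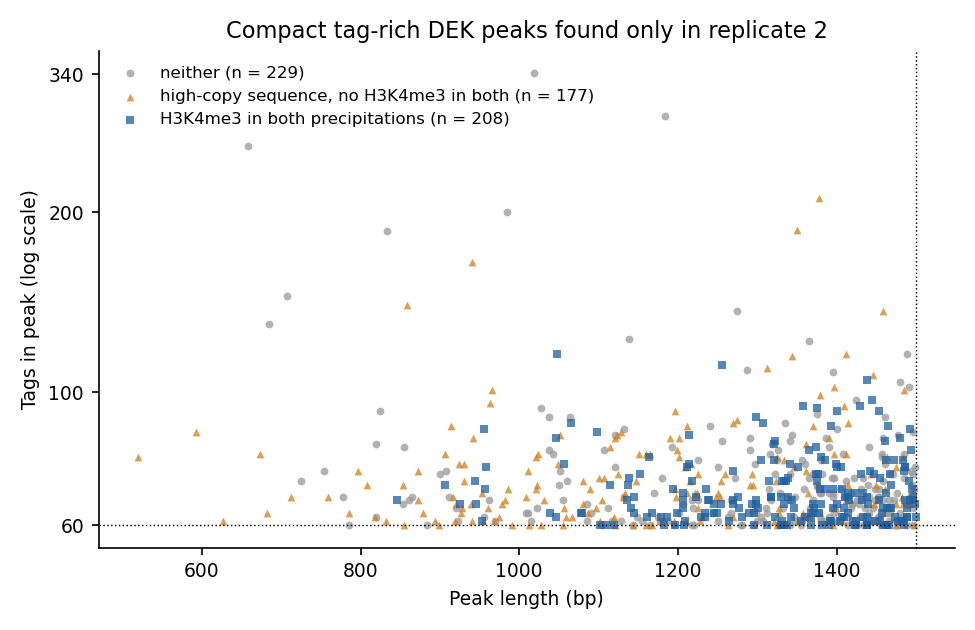
Each point is 1 of the 614 compact peaks, with its length in bp on the x axis and its tags on a log y axis. Squares overlap H3K4me3 peaks of both precipitations, triangles hold high-copy sequence without it and circles have neither. Dotted lines are the limits of the choice (60 tags and 1500 bp). The 3 peaks with the most tags (341, 289 and 258) are circles.

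DEK peaks at TSSs made up a large class. The middle of the peak was within 1 kb of a TSS for 215 of the 614 compact peaks, or 35.02% (95% Wilson interval 31.3% to 38.9%), while the share was 16.8% among all peaks of replicate 2. All intervals given here cover counting error only, and no test was made over peaks, which are not replicates. The nearest TSS belonged to a protein-coding gene for 149 of the 215, to a lncRNA gene for 51 and to another type for 15. The compact peaks lay downstream of it in 104 cases and upstream or at it in 111. By the position of the middle, 94 compact peaks were in exons (15.3%), 289 in introns (47.1%) and 231 between genes (37.6%). Among all replicate 2 peaks these shares were 11.9%, 58.95% and 29.2%. At 1000 to 1500 bp, 46.9% of the compact peaks were in introns and 36.1% between genes. The shares were 56.2% and 27.3% for peaks of that length with fewer than 60 tags and no replicate 1 partner. For comparison, 92 peaks of replicate 2 had the same tags and length but did meet a replicate 1 peak, and 38.0% of these lay at a TSS. The same limits applied the other way, to peaks of replicate 1 that met none of replicate 2, gave 1783 peaks with 16.1% at a TSS. The peaks closest to the limit were closer to the compact peaks: of the peaks without a replicate 1 partner, up to 1500 bp long and with 50 to 59 tags, 32.1% lay at a TSS. Among peaks of 1000 to 1500 bp the share was 38.5% for the compact peaks and 23.7% for those with fewer than 60 tags and no replicate 1 partner.

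H3K4me3 was not used in the choice and was found at many compact peaks. In H3K4me3 replicate 1, 249 of them (40.6%, 36.7% to 44.5%) overlapped a peak, against 10.7% of all replicate 2 peaks. In H3K4me3 replicate 2, 223 did so (36.3%, 32.6% to 40.2%), against 8.05%. Both H3K4me3 lists covered 208 (33.9%, 30.2% to 37.7%), against 7.74%, and neither covered 350. Of the remaining peaks, 41 met H3K4me3 in replicate 1 only and 15 in replicate 2 only. H3K4me3 in both precipitations coincided with a TSS in 165 cases. A further 43 compact peaks had H3K4me3 in both away from a TSS, and 50 lay at a TSS without it.

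Peaks of like length were also compared. Among peaks of 1000 to 1500 bp, H3K4me3 of both precipitations was found at 37.2% of the 535 compact peaks. It was found at 12.7% of the 19738 peaks without a replicate 1 partner that had fewer than 60 tags. For peaks up to 1500 bp with 50 to 59 tags, below the limit, the share was 29.4%. The peaks that did meet replicate 1 (54.3%) and the compact peaks particular to replicate 1 by the reversed rule (55.4%) had larger shares. The reversed set met H3K4me3 replicate 1 at 81.2% and replicate 2 at 57.2% of its peaks.

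**Figure D2:**
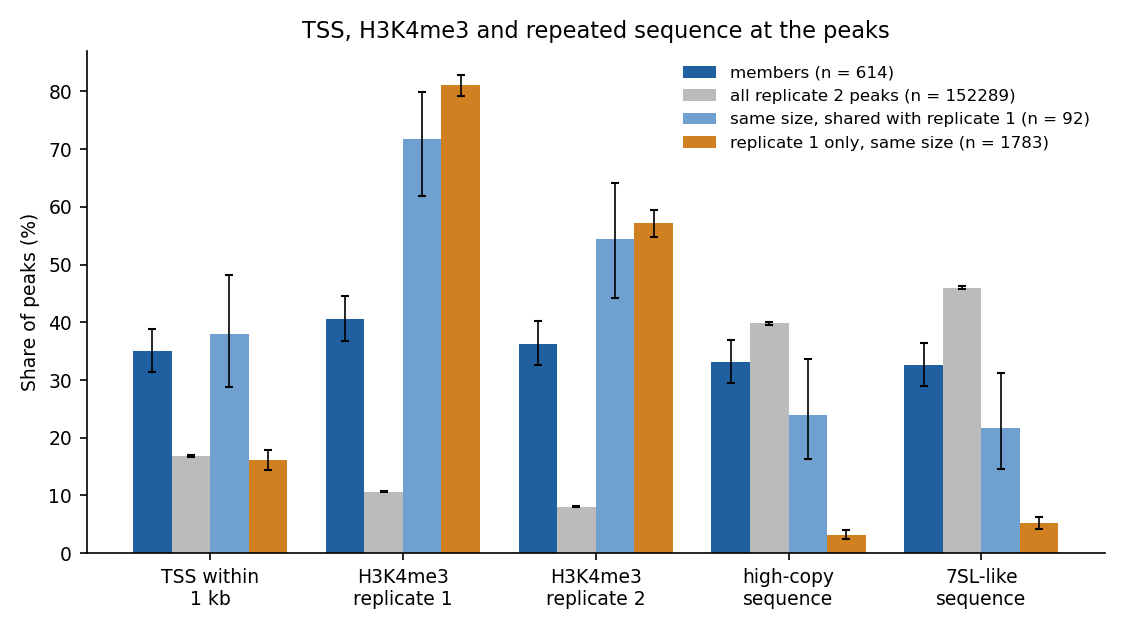
Bars give the percent of peaks within 1 kb of a TSS, overlapping H3K4me3 of each precipitation, or holding high-copy or 7SL-like sequence, in 4 sets of DEK peaks. Error bars are 95% Wilson intervals for counting error. The 614 compact peaks (members) reach 35.02% at TSSs against 16.8% of all replicate 2 peaks, and 33.1% in high-copy sequence against 39.8%. The high-copy order turns among peaks of 1000 to 1500 bp (29.5% and 22.95%). Outside the stretches of chromosomes 12 and 13 described below, 22.1% of the compact peaks, not matched on length, are high-copy.

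The plot of distances from the nearest TSS shows the compact peaks with H3K4me3 gathered at the start site. The 182 compact peaks with H3K4me3 in both precipitations and no high-copy sequence were mostly at promoters. Of these, 157 (86.3%) lay at a TSS, the median GC content was 63.8%, and the median share of 25-bp words found once in the genome was 100%. They had a median of 66 tags, a highest value of 111 tags and a median fold enrichment of 3.71. H3K4me3 itself marks TSSs, and the share at a TSS was not taken for other DEK peaks with H3K4me3 in both.

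**Figure D3:**
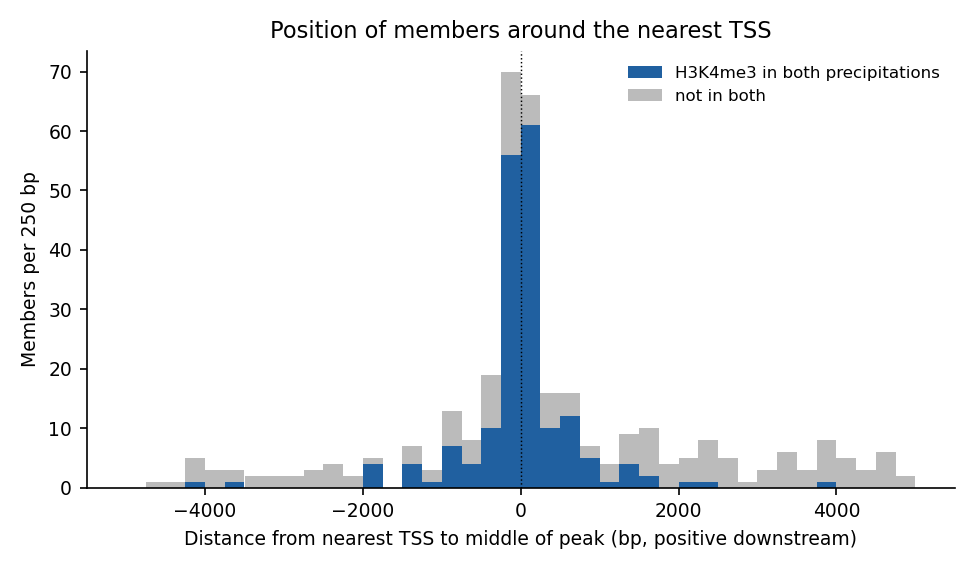
The histogram counts compact peaks in bins of 250 bp by the distance in bp from the nearest TSS to the middle of the peak, with positive values downstream, for distances up to 5 kb. Blue bars are peaks with H3K4me3 in both precipitations and grey bars are stacked on them for the others. The blue peaks, 165 of 208 of which lie within 1 kb, gather around 0.

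Of the compact peaks with H3K4me3 in both precipitations, the most tags were 116 in a peak of high-copy sequence 3690 bp upstream of KLHDC4. The next had 111 tags at an unnamed lncRNA gene on chromosome 13 and 105 at GXYLT1, which encodes a xylosyltransferase of Notch glycosylation, 19 bp from its TSS. A peak over UCHL3, a ubiquitin hydrolase gene, had 97 tags. P4HA1, the catalytic subunit of the collagen prolyl hydroxylase, and POLG2 had 95 each. LSM10, a component of the U7 snRNP that processes histone mRNA, had 94, and MRPL34, a mitochondrial ribosomal protein gene, had 93. The highest score of all compact peaks, 792.06, belonged to the peak in an intron of TOP1, whose middle was 749 bp from a TSS and which had 69 tags and a fold enrichment of 34.34. P4HA1 followed, its score being 683.86 and its fold enrichment 9.57. The third, in an intron of CDC27, a subunit of the anaphase-promoting complex, had a score of 603.43 and 77 tags with no H3K4me3 peak in either list.

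A compact peak at a TSS was rare for genes in general, found for 201 of all 20090 protein-coding genes (1.00%). The genes of the lists chosen for DEK and myeloid cells are given beside that share. CSF3R and CSF1R, the receptors for granulocyte and macrophage colony-stimulating factor, were 2 of 29 myeloid genes (6.90%). H2BC6, a histone H2B gene, was 1 of 66 histone genes (1.52%), and FOSB, a subunit of AP-1, was 1 of 28 early response genes (3.57%). In these peaks 63 tags were counted at CSF3R, 63 at CSF1R, 73 at H2BC6 and 65 at FOSB. H3K4me3 of both precipitations covered those of CSF3R, H2BC6 and FOSB, and neither covered that of CSF1R. No compact peak lay at the TSS of the 79 cytosolic ribosomal protein genes, the 24 abundant small noncoding RNA genes, the 22 genes of DEK, its fusion partner and histone chaperones or the 10 lncRNA genes listed. At the share of 1.00% of all protein-coding genes, lists of these sizes can easily hold none. Most listed genes had some peak of replicate 2 at a TSS, compact peaks included, such as 59 of the 66 histone genes and 57 of the 79 ribosomal protein genes. The same held for 57.1% of all protein-coding genes and for 16 of the 29 myeloid genes.

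High-copy sequence formed the second large class. A window reaching 150 bp to each side of the middle was called high-copy when its median 25-bp word occurred more than 10 times in the reference. This held for 203 compact peaks, or 33.1% (29.5% to 36.9%), against 39.8% of all replicate 2 peaks. Of the compact peaks particular to replicate 1, 3.14% were high-copy. Similarly, a stretch of at least 50 bp aligned to 7SL RNA in 200 compact peaks, or 32.6%, against 46% of all replicate 2 peaks and 5.16% of the replicate 1 set. The order turned at like length. Among peaks of 1000 to 1500 bp, high-copy sequence was in 29.5% of the compact peaks and in 22.95% of those with fewer than 60 tags and no replicate 1 partner. There 7SL-like sequence was in 29.2% and 26.4%. In the stretches of chromosomes 12 and 13 described below, 61.8% of the compact peaks were high-copy and 57.1% were 7SL-like. Elsewhere these shares were 22.1% and 23.2%, without matching on length. Of all 1386 replicate 2 peaks in the stretches, 49.4% were high-copy and 57.1% were 7SL-like, the latter the same share as in the compact peaks there. Peaks without a replicate 1 partner, up to 1500 bp long and with 50 to 59 tags, had shares of 27.2% and 33.5%. The peaks of the same size that met replicate 1 had 23.9% and 21.7%. The 2 measures met in 151 compact peaks. Only 26 of the 203 high-copy peaks met H3K4me3 in both precipitations. The other 177 had a median GC content of 51.8%, and 12 of them (6.78%) lay at a TSS.

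Most of the compact peaks with the most tags were in repeated sequence, and 4 of the 10 were high-copy. Of the 10 with the most tags, 9 had less than 50% of their 25-bp words found once in the reference, and 6 lay within 1 Mb of a gap in the assembly. In all, 305 compact peaks had less than 50% of their words found once, with a median share of 50.4% against 48.7% in all replicate 2 peaks. At 1000 to 1500 bp the median was 60.3% for the compact peaks. It was 89.9% for peaks of that length with fewer than 60 tags and no replicate 1 partner. For the peaks of the same size shared with replicate 1 it was 93.1%. Peaks without a replicate 1 partner, up to 1500 bp long and with 50 to 59 tags, were closer, with a median of 64.3%. Compact peaks outside the stretches described below, not matched on length, had a median of 75.8%. Within 1 Mb of an assembly gap lay 22.5% of the compact peaks and 17.2% of all replicate 2 peaks. At 1000 to 1500 bp the shares were closer, with 22.4% and 21.3% of those with fewer than 60 tags and no replicate 1 partner. The peak near OR2T1 held 341 tags, with a fold enrichment of 2.99 and an H3K4me3 peak in replicate 1 only. The next, with 289 tags, lay 1059 bp from MIR3687 on chromosome 21 and 1234 bp from an assembly gap. A second compact peak with 91 tags stood 152 bp from the same microRNA gene, with a score of 514.31. The third by tags, with 258, was the satellite peak of MAMDC2-AS1. Those of 211 tags (chromosome 1), 200 tags (chromosome 2) and 187 tags (chromosome 5) lay 8534, 41298 and 17895 bp from assembly gaps. A peak with 186 tags stood 80 bp from the U2 snRNA pseudogene RNU2-64P and was the only one of the 10 with mostly single-copy words (83.0%). The remaining peaks had 165 tags in TBC1D19, 145 in a region of chromosome 1 without a named gene and 140 near SNX18P10. None of these 10 had H3K4me3 in both precipitations.

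Tandem repeats, called where at least 80% of the same window matched itself at a shift of 2 to 150 bp, filled 10 compact peaks. This was 1.63% (0.887% to 2.97%) against 0.385% of all replicate 2 peaks and 0.337% of the replicate 1 set. Among peaks of 1000 to 1500 bp it was 1.495% for the compact peaks. For those with fewer than 60 tags and no replicate 1 partner it was 0.654%. Peaks without a replicate 1 partner, up to 1500 bp long and with 50 to 59 tags, had 1.04%. The 92 peaks of the same size that met replicate 1 had 2.17% (0.598% to 7.58%). A higher share was therefore not shown to be particular to the compact peaks. The repeat near ZDHHC20-IT1 (94 tags) matched itself best at a shift of 42 bp. One on chromosome 16 (91 tags) did so at 41 bp and one near FAM120B (74 tags) at 122 bp. Such a shift can be a multiple of the repeated unit. The FAM120B repeat was the only one of the 10 with H3K4me3 in both precipitations. These genes were singled out after their values were seen. In an intron of PLCH2, a phospholipase C gene, the compact peak had a fold enrichment of 17 and a self-match of 53.9% at 69 bp, under the limit.

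Satellite letters were rare but more frequent in the compact peaks than in the list. The pentamer GGAAT, repeated 3 times in a row, was in 5 windows, or 0.814% (0.348% to 1.89%), against 0.0204% of all replicate 2 peaks. Apart from MAMDC2-AS1 they lay on chromosomes 7 (61 and 80 tags), 10 (64 tags) and 21 (71 tags), each within 1 Mb of an assembly gap. H3K4me3 replicate 2, but not replicate 1, had a peak at 4 of the 5. The CENP-B box, the site bound by a centromere protein in alpha satellite, was in 4 windows, or 0.651%, against 0.0506%. They held 200 tags on chromosome 2, 83 on chromosome 11 and 79 and 101 on chromosome 15. Here H3K4me3 replicate 2 alone had a peak at 2 of the 4.

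Letters of most of the motifs given here were found at other rates in the compact peaks than in those of replicate 1. The letters of PU.1 (GAGGAAG, searched on both strands like all motifs) were in 7.49% of compact peaks (5.66% to 9.85%), close to the 6.88% of all replicate 2 peaks. In the replicate 1 set the share was 27.9%. For RUNX1 (TGTGGT), the values were 18.9%, 20.5% and 34.6%, and for AP-1 (TGANTCA) they were 6.03%, 5.17% and 14.2%, in the same order. The letters of NF-Y (CCAAT) were in 23.8%, 19.7% and 29.3%. Those of SP1 (GGGCGG) showed the opposite order, with 30.8% of compact peaks (27.3% to 34.5%), 22% of all replicate 2 peaks and 8.02% of the replicate 1 set. The ETS letters CCGGAAG were in 6.03% (4.40% to 8.20%), 2.37% and 4.49%. Those of USF1 (CACGTG) were about equally frequent, with 5.05% (3.58% to 7.08%), 4.93% and 4.71%. A match gives only the presence of these letters in the window.

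Without high-copy windows, PU.1 letters were in 10.2% of compact peaks, 10.3% of replicate 2 and 28.6% of the replicate 1 set, and SP1 letters in 31.1%, 20.2% and 7.99%. Within the compact peaks, SP1 letters were in 49.0% of the 208 with H3K4me3 in both precipitations and in 21.4% of the 406 others. ETS letters were in 13.9% and 1.97%. PU.1 letters were in 11.5% and 5.42%. Other sets of DEK peaks were not split by H3K4me3 in this way. The letters of the NRF1 motif were in 12 compact peaks, or 1.95% (1.12% to 3.38%), against 0.346% of all replicate 2 peaks and 0.449% of the replicate 1 set. All 12 had H3K4me3 in both precipitations and lay within 1 kb of a TSS. They included peaks at POLG2 (95 tags), MRPL34 (93), PRPSAP1 (71), U2AF2 (66), ZNF248 (65), ERMARD (64), RIDA (63), RSU1 (62), ZFAND2A-DT (61), LYAR (60) and ARHGDIA (60). U2AF2 encodes a splicing factor. This list was made after the values were seen.

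**Figure D4:**
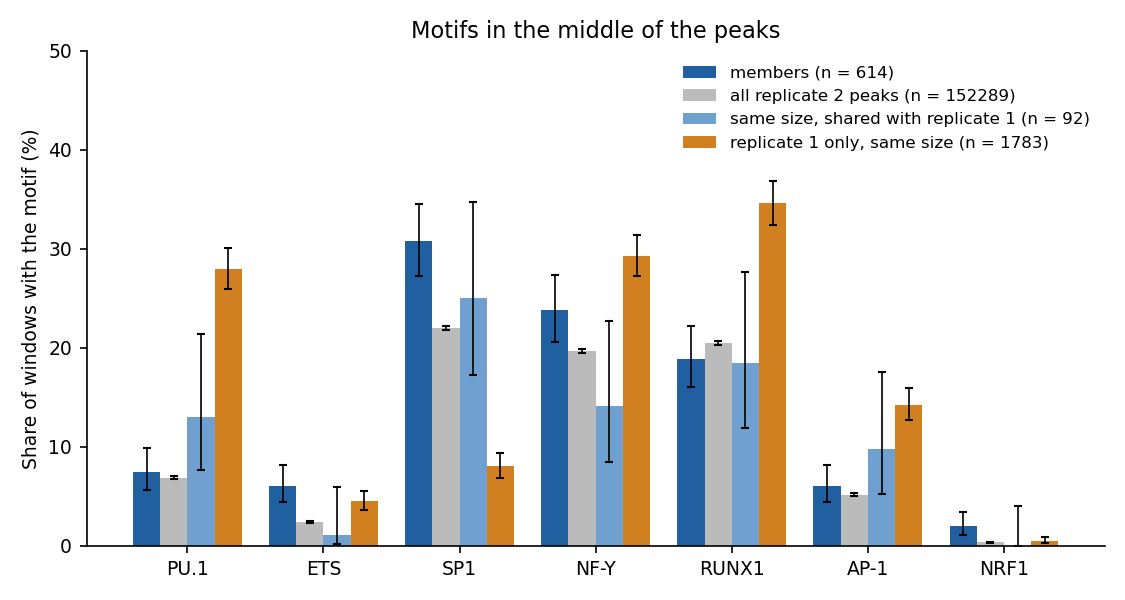
Bars give the percent of windows, 150 bp to each side of the middle, that hold the letters of each motif on either strand, in 4 sets of DEK peaks, with 95% Wilson intervals. The compact peaks (members) are close to all replicate 2 peaks for PU.1 (7.49% and 6.88%) and far under the 27.9% of the replicate 1 set, while SP1 has the opposite order.

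The base composition was also taken from these windows. The median GC content of the compact peaks was 53.8%, against 53.5% for all replicate 2 peaks and 48.2% for the replicate 1 set. The ratio of observed to expected CpG had a median of 0.582, against 0.447 and 0.232. Like sets were close to the compact peaks. The peaks of the same size shared with replicate 1 had medians of 56.1% GC and a CpG ratio of 0.576. Those without a replicate 1 partner, up to 1500 bp long and with 50 to 59 tags, had 54.5% and 0.534. The compact peaks with neither H3K4me3 in both precipitations nor high-copy sequence, 229 in number, had a median GC content of 48.2% and a median of 65.0% of words found once.

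The compact peaks were spread unevenly over the genome. Chromosome 12 had 121 and chromosome 13 had 60, or 0.927 and 0.628 per Mb, against 0.217 per Mb over all chromosomes. Chromosome 19 had 38 (0.681 per Mb) but also the densest replicate 2 list, with 146 peaks per Mb. Chromosome 22 had no compact peak among its 3294 replicate 2 peaks. On chromosomes 12 and 13 most of them lay in 1 stretch each. The stretch from 35 to 50 Mb of chromosome 12 held 117 compact peaks (19.1% of all), which made up 15.9% of the replicate 2 peaks there. From 80 to 95 Mb of chromosome 13 there were 53 (8.63% of all), or 8.15% of the replicate 2 peaks there. Elsewhere 444 compact peaks made up 0.294% of the replicate 2 peaks. Both stretches were chosen after the positions were seen.

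**Figure D5:**
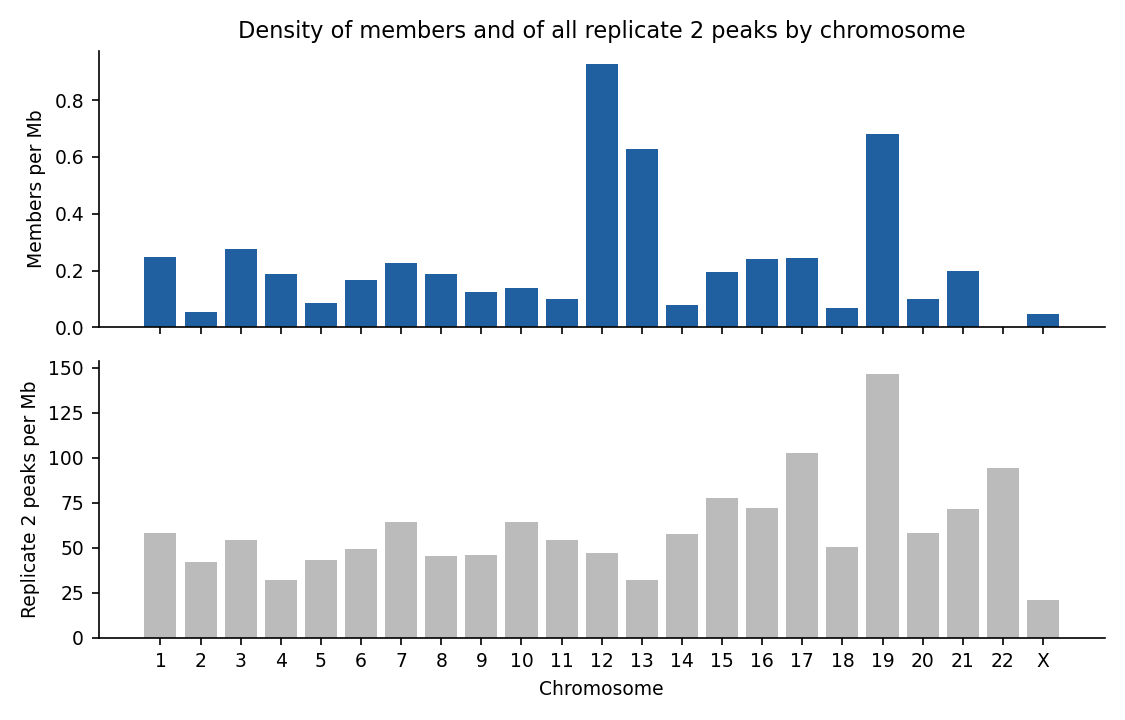
The upper bars give compact peaks (members) per Mb of known sequence and the lower bars all replicate 2 peaks per Mb, by chromosome. Chromosomes 12 (0.927 per Mb) and 13 (0.628) stand out in the upper bars but not in the lower ones, while chromosome 19 is high in both and chromosome 22 has no compact peak.

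In both stretches all DEK peaks of replicate 2 held more tags, while they were not denser. Replicate 2 had 49.1 peaks per Mb in the stretch of chromosome 12 and 43.3 in that of chromosome 13, against 53.8 elsewhere. Its median tags per peak were 42.5 and 41 there, against 20 elsewhere. Replicate 1 had more peaks in both, 18.1 and 26.8 per Mb against 5.08 elsewhere, with medians of 84 and 62.5 tags against 46. H3K4me3 replicate 1 had 23.4 and 11.7 peaks per Mb there and 16.4 elsewhere, and H3K4me3 replicate 2 had 20.1 and 10.5 against 10.0. The part that these tag levels and densities had in the number of compact peaks was not tested. In the stretches, 75 of 117 and 30 of 53 compact peaks were high-copy, and 11 and 5 had H3K4me3 in both precipitations. Of all 1386 replicate 2 peaks in the stretches, 49.4% were high-copy and 97 had H3K4me3 in both. Without the stretches, 45.3% of the 444 compact peaks were at a TSS, 43.2% had H3K4me3 in both precipitations and 22.1% were high-copy.

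Many compact peaks had another one nearby. With gaps of up to 100 kb, 282 of them (45.9%) formed 78 clusters and 332 stood alone. Without the stretches of chromosomes 12 and 13 the share in clusters was 31.1% of 444. It was not taken for other sets of peaks, so it is not shown to be particular to the compact peaks. The largest cluster, chr12:42321941-43047830, held 30 compact peaks over GXYLT1, YAF2, PPHLN1, ZCRB1 and PRICKLE1, of which 21 were high-copy, with 62 to 105 tags and the most at GXYLT1. The second, chr12:45516775-46020492, held 17, including some over ANO6, with 60 to 107 tags. Its peak with the most tags lay 32655 bp from the nearest TSS, that of RNU6-671P. The third, chr1:33195920-33580696, lay outside the stretches and held 12 compact peaks around RNF19B and YARS1, with 60 to 81 tags.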

How the data were processed

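The authors sequenced paired-end reads of 100 bp on a HiSeq 2000, converted bases with Illumina OLB 1.9, used Bowtie 2 for the alignment to hg19, and ran MACS 1.4.1 on each DEK precipitation. The deposited DEK lists give raw tag counts, a score, the fold enrichment (a ratio to local background) and the false discovery rate in percent. The deposited H3K4me3 lists give positions only, and how they were called is not given in the sources used here. Only tags in peaks are known, not the depth.

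Positions were compared at an overlap of 1 bp. The annotation was GENCODE release 44 mapped to GRCh37, with distances from the middle of the peak. In 301 bp windows, 25-bp words were counted in GRCh37 on both strands, 18 motifs were searched, and 7SL RNA (RN7SL2) was aligned with BLAST 2.17.0 (e-value 1e-05). Shares have 95% Wilson intervals (SciPy 1.17.1). The code was tested on simulated data. Python 3.11.15, NumPy 2.4.6, pandas 2.3.3, Numba 0.67.0, pysam 0.24.0 and Matplotlib 3.10.9 were used.

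Named are the 10 compact peaks with the most tags, the 10 with the highest score, the 8 with the most tags among those with H3K4me3 in both precipitations, those at TSSs of 7 gene lists, the leading peaks of the 3 largest clusters and the peaks at the limits. The compact peaks and all lists were chosen with earlier results of these data known. Alternatives were other limits, windows and overlaps, and leaving out the stretches of chromosomes 12 and 13 or high-copy windows. Some named peaks and sequences are not reported here.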

Additional observations from a re-analysis of the deposited data

How the results depend on the processing

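The limits on tags and length set the number of compact peaks: 7405 at 40 tags, 105 at 80, 30 at 100, 79 up to 1000 bp, 2596 up to 2000 bp and 8040 with no limit on length. The share at a TSS was 27.9% within 500 bp, 41.9% within 2000 bp, 28.0% for protein-coding TSSs, 27.3% at 40 tags, 27.6% at 80, 16.7% at 100, 11.4% up to 1000 bp, 47.4% without high-copy windows and 45.3% without the stretches. H3K4me3 in both precipitations was found at 21.4% at 40 tags, 24.8% at 80, 10.0% at 100, 11.4% up to 1000 bp, 44.3% without high-copy windows and 43.2% without the stretches. With 1 H3K4me3 list left out it was 36.3% to 40.6%. High-copy sequence reached 44.8% at more than 2 copies, 17.4% at more than 100 and 22.1% without the stretches. Median GC content was 55.8% around the summit, 50.6% in whole peaks and 56.0% without the stretches. Clustering was 34.9% at 50 kb, 68.6% at 500 kb and 31.1% without the stretches. In whole peaks the letters of PU.1 were in 29.2%, ETS in 16.8%, SP1 in 58.96% and RUNX1 in 51.5%, and around the summit RUNX1 in 15.3%. Without high-copy windows PU.1 had 10.2%, ETS 8.52% and RUNX1 15.1%. Tandem repeats were 0.814% at a self-match of 90%, and 7SL-like windows 40.4% at 30 bp and 23.2% without the stretches. The other 26 values stayed within their counting error or within 1.5 times the count. Leaving out the stretches or high-copy windows from the motifs, matching on length, and the settings for tandem repeats and 7SL were added after the data were seen. Counts of listed genes and of the other motifs were not varied. No paired analysis was possible because no result comes from a test and each DEK list is 1 precipitation. The unknown depth limits every absence of a peak.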
